A study of Rattus norvegicus with 3 samples.

Results

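The receptors through which neurons read serotonin, dopamine, noradrenaline and acetylcholine were followed in 3 single rat hippocampal somata. Members were all probe sets whose only gene symbol named a serotonin (Htr), dopamine (Drd), adrenergic (Adra, Adrb), muscarinic (Chrm) or nicotinic (Chrn) receptor. This choice used names alone, although earlier results of these data were known when it was made. It gave 64 probe sets of 48 genes, out of 20832 probe sets of 14218 genes with exactly 1 symbol and 31099 probe sets in all. Serotonin receptors held 22 probe sets of 14 genes, dopamine receptors 8 of 5, adrenergic receptors 11 of 8, muscarinic receptors 6 of 5 and nicotinic subunits 17 of 16.

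The samples formed 1 group of 3 arrays. Every array was hybridised with RNA amplified from 1 soma, which had been cut by glass pipette from a neuron labelled pyramidal. The dispersed hippocampal cultures were 14 days old and came from Sprague-Dawley rat embryos of day 19. No sample received a treatment, and no sample of another tissue, strain or cell compartment was compared here. The somata are numbered 1, 2 and 3 after the replicate number in the labels, which name neither the animal nor the dish, so spreads between somata were described and no p-value was given.

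Serotonin, dopamine and noradrenaline reach the hippocampus in long axons from the brain stem and midbrain, and acetylcholine comes mainly from the medial septum. Most of their receptors are G protein-coupled. Those that couple to Gs raise cyclic AMP, those that couple to Gi/o lower it and open potassium channels, and those that couple to Gq/11 release calcium from stores. Nicotinic receptors and the serotonin 3 receptor are instead ion channels built from several subunits around a pore, and pass cations within milliseconds.

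A probe set's value depends on how well its probes bind as well as on the amount of RNA, so the order of receptors on an array is not an order of their transcripts. Each log2 value was therefore given with its percentile among the 20832 named probe sets of its array, and beside a background taken from genes that a neuron should not use. That background was the 95th percentile of 151 silent probe sets of 137 genes (41 receptors of smell or taste and 96 proteins of other organs), and it stood at 9.78, 10.17 and 9.69 log2 in somata 1, 2 and 3. The arrays had medians of 7.23, 7.16 and 7.09 log2. Soma 1 stood apart in the 3′ to 5′ difference of the Gapdh control probe sets, which was 0.20 log2 there, against 3.06 and 2.93 log2 in somata 2 and 3. Different probe sets of the same gene hardly followed each other within an array (Pearson's r = 0.0119, 0.0457 and 0.0748 in somata 1, 2 and 3, across 4526 genes with 1 pair each, as a description). Probe set IDs and symbols were used as deposited and annotated. Whether a wrong pairing of IDs, symbols and values accounts for this was not tested, and it would bear on every receptor value. The pyramidal label was met in part: the transcription factor Neurod2 and the calmodulin-binding protein Nrgn were above background in all 3 somata. Neurod6 was above it in soma 3 alone, and Tbr1, Camk2a (4 probe sets) and Slc17a7 (2 probe sets) in none, which made 2, 2 and 3 of 10 probe sets of the pyramidal list. Neuronal markers were above background for 3, 2 and 9 of 14 probe sets, interneuron markers for 0, 1 and 0 of 7, and oligodendrocyte markers for 0 of 7 in every soma. Endothelial markers were above it for 1 of 5 in every soma, which was Vwf, at percentiles 99.7, 99.7 and 99.6. Over all named probe sets, 8.53, 6.85 and 10.9% were above background in somata 1, 2 and 3. Counts of 0 or 1 in such short lists therefore do not tell them from the array.

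Most receptor probe sets lay within the range of silent genes. In soma 1, 8 of the 64 members were above background (12.5%), beside 8.53% of all named probe sets. In soma 2 the count was again 8 of 64 (12.5%), beside 6.85% of all named probe sets, and in soma 3 it was 9 of 64 (14.1%), beside 10.9%. Of the silent probe sets themselves, 8 of 151 (5.30%) were above it in each soma, as the definition fixes. A handful of probe sets separates each receptor share from that of the array. With the background at the 90th percentile of the silent probe sets, the receptor shares were 14.1, 15.6 and 14.1%, beside 13.8, 10.3 and 15.3% of all named probe sets, so the receptors were not above background more often than the array in soma 3.

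Across somata, 15 of the 64 members (23.4%) were above background in at least 1 soma, beside 17.5% of all named probe sets, and 2 members (3.12%) in all 3, beside 2.56%. The 15 probe sets belonged to 15 genes, and 33 of the 48 receptor genes were above background in none of the somata. The pair that passed in every soma, Chrna6 and Chrna1, were nicotinic alpha subunits. Of the 151 silent probe sets, 3 also passed in all 3 somata and 14 in at least 1. The highest mean percentile was 99.3 among the silent probe sets and 98.7 among the members. Whether the members passed in at least 1 soma more often than the array depended on the background. At the 90th percentile of the silent probe sets, 16 of the 64 members did. This was a smaller share than the 26.2% of all named probe sets. Smell and taste receptors alone as silent gave 26.6% of members, beside 25.4% of all. Other-organ proteins alone gave 20.3%, beside 15.2%. With the background raised to the 99th percentile of the silent probe sets, no member passed in all 3 somata, beside 0.374% of all named probe sets. The counts were then 0, 5 and 1 of 64 in somata 1, 2 and 3 (0, 7.81 and 1.56%), beside 0.470, 2.01 and 2.26% of all. Without the 12 members whose probes may match several transcripts, 8, 6 and 5 of 52 passed in somata 1, 2 and 3. These were 15.4, 11.5 and 9.62%, beside 8.63, 6.16 and 9.70% of all named probe sets so filtered. The background was here taken anew from the silent probe sets that remained. The top 5% of the array held 3, 8 and 6 of the 64 members in somata 1, 2 and 3, where it holds 5% of all named probe sets by definition. In at least 1 soma it held 9 members (14.1%), and the matching share of all named probe sets was not computed.

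The values closest to the background show how narrow some of these calls are. In soma 1 the dopamine receptor Drd1 (1368478_at) was just above it at 9.88 log2 and the serotonin receptor Htr1f just below it at 9.66 log2. In soma 2 Htr1f was the lowest member above it at 10.57 log2, and Chrna7 the highest member below it at 10.08 log2. In soma 3 Chrna7 was just above it at 9.85 log2, and the next member, Adra1b, read 9.05 log2.

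The median percentile of the 64 members was 61.1, 48.0 and 54.1 in somata 1, 2 and 3, a mean of 54.4 ± 6.57 (SD, n = 3), where all named probe sets have 50 by definition and the silent probe sets had 38.8, 42.1 and 42.4. Dopamine receptors had class medians of 73.8, 59.4 and 65.8 (66.4 ± 7.21) and nicotinic subunits of 55.4, 58.0 and 53.6 (55.7 ± 2.25). Muscarinic receptors had 71.3, 40.0 and 50.7 (54.0 ± 15.9). The muscarinic median thus spanned more between somata than the dopamine and nicotinic medians did. Adrenergic receptors had 49.1, 43.2 and 62.7 (51.7 ± 9.99) and serotonin receptors 63.3, 44.3 and 28.9 (45.5 ± 17.2). The dopamine class was first of the 5 in all 3 somata, and the other classes changed places from soma to soma within spreads as large as their distances. The classes hold 6 to 22 probe sets of unlike affinity, and no test between them was made.

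**Figure D1:**
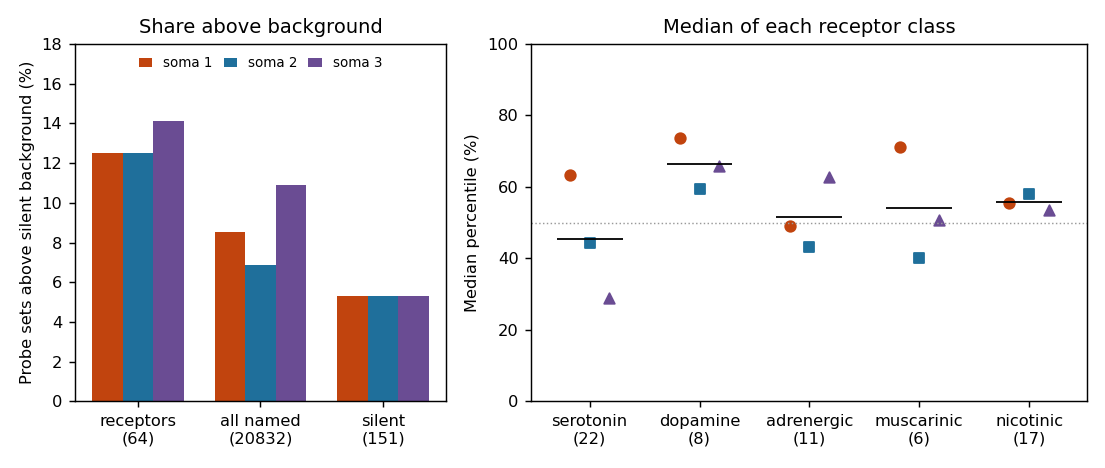
Left, the share (%) of probe sets above the silent background in each soma for the 64 receptor probe sets, the 20832 named probe sets and the 151 silent probe sets; the receptor bars reach 12.5, 12.5 and 14.1%. Right, the median percentile (%) of each receptor class in somata 1, 2 and 3 (points) and the mean over the 3 somata (line), with the number of probe sets in brackets; the serotonin points spread from 63.3 down to 28.9, while the nicotinic points lie between 53.6 and 58.0.

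Among the nicotinic subunits, the alpha 6 subunit Chrna6, which in the brain is best known from midbrain dopamine neurons and the retina, read 11.22, 11.93 and 11.89 log2 in somata 1, 2 and 3 (11.68 ± 0.40, SD, n = 3). It lay at percentiles 98.2, 99.2 and 98.8, in the top 5% of every array, and was the only member to do so. Chrna1, the alpha subunit of the muscle receptor, read 10.04, 11.75 and 11.39 log2 (11.06 ± 0.90). It was above background in all 3 somata, although by a margin of under 1 log2 in soma 1. None of 7 probe sets of 6 skeletal muscle genes was above background in any soma, beside 17.5% of all named probe sets. The delta, epsilon and gamma subunits of the muscle receptor did not share the place of Chrna1. Chrnd, the delta subunit, read 7.60, 7.66 and 8.63 log2, and Chrne, the epsilon subunit of the adult muscle receptor, 7.45, 7.98 and 8.67 log2. Chrng, the gamma subunit of the fetal muscle receptor, read 7.15, 6.23 and 6.38 log2. All 3 stayed below background in every soma.

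The muscle beta 1 subunit Chrnb1 had a pair of probe sets that differed in pattern. Probe set 1379870_at read 10.10, 7.29 and 6.10 log2 and was above background in soma 1 alone, while 1369091_at read 8.00, 8.77 and 7.48 log2 and was above it in none. The highest soma was therefore soma 1 by the first of these probe sets and soma 2 by the other.

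Chrnb4, the beta 4 subunit that pairs with alpha 3 in autonomic ganglia and in the medial habenula, read 8.27, 11.42 and 11.23 log2. It was above background in somata 2 and 3 by over 1 log2 and below it in soma 1. The only Chrnb4 probe set, 1369405_a_at, has probes that may match several transcripts. Chrna7, which forms the alpha 7 homomeric receptor of hippocampal neurons, read 8.29, 10.08 and 9.85 log2. It passed the background in soma 3 and missed it narrowly in soma 2, where the background was higher. The subunits of the other main brain receptor, alpha 4 and beta 2, were below background: Chrna4 read 7.19, 7.41 and 7.30 log2, with an SD between somata of 0.14 log2 after quantile normalisation, one of the smallest of the members, and Chrnb2 read 6.10, 6.85 and 7.38 log2, at percentiles 22.6, 41.3 and 55.4.

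At the other end of the class was Chrnb3, the accessory beta 3 subunit that assembles with alpha 6 receptors, with 5.72, 4.46 and 4.37 log2 at percentiles 15.4, 1.98 and 1.88. Chrna5, an accessory subunit too, read 5.28, 6.00 and 5.50 log2. Chrna3, the ganglionic alpha 3 subunit, read 5.60, 7.22 and 4.93 log2. These were the lowest of the nicotinic class by mean percentile, and none was above background in any soma. The remaining members Chrna2, Chrna9 and Chrna10 had mean percentiles from 33.1 to 52.2, the last for Chrna2, which read 9.10 log2 in soma 1, against 6.55 and 6.54 log2 in somata 2 and 3. Chrna9 and Chrna10, which form the receptor of cochlear hair cells, were below background throughout.

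**Figure D2:**
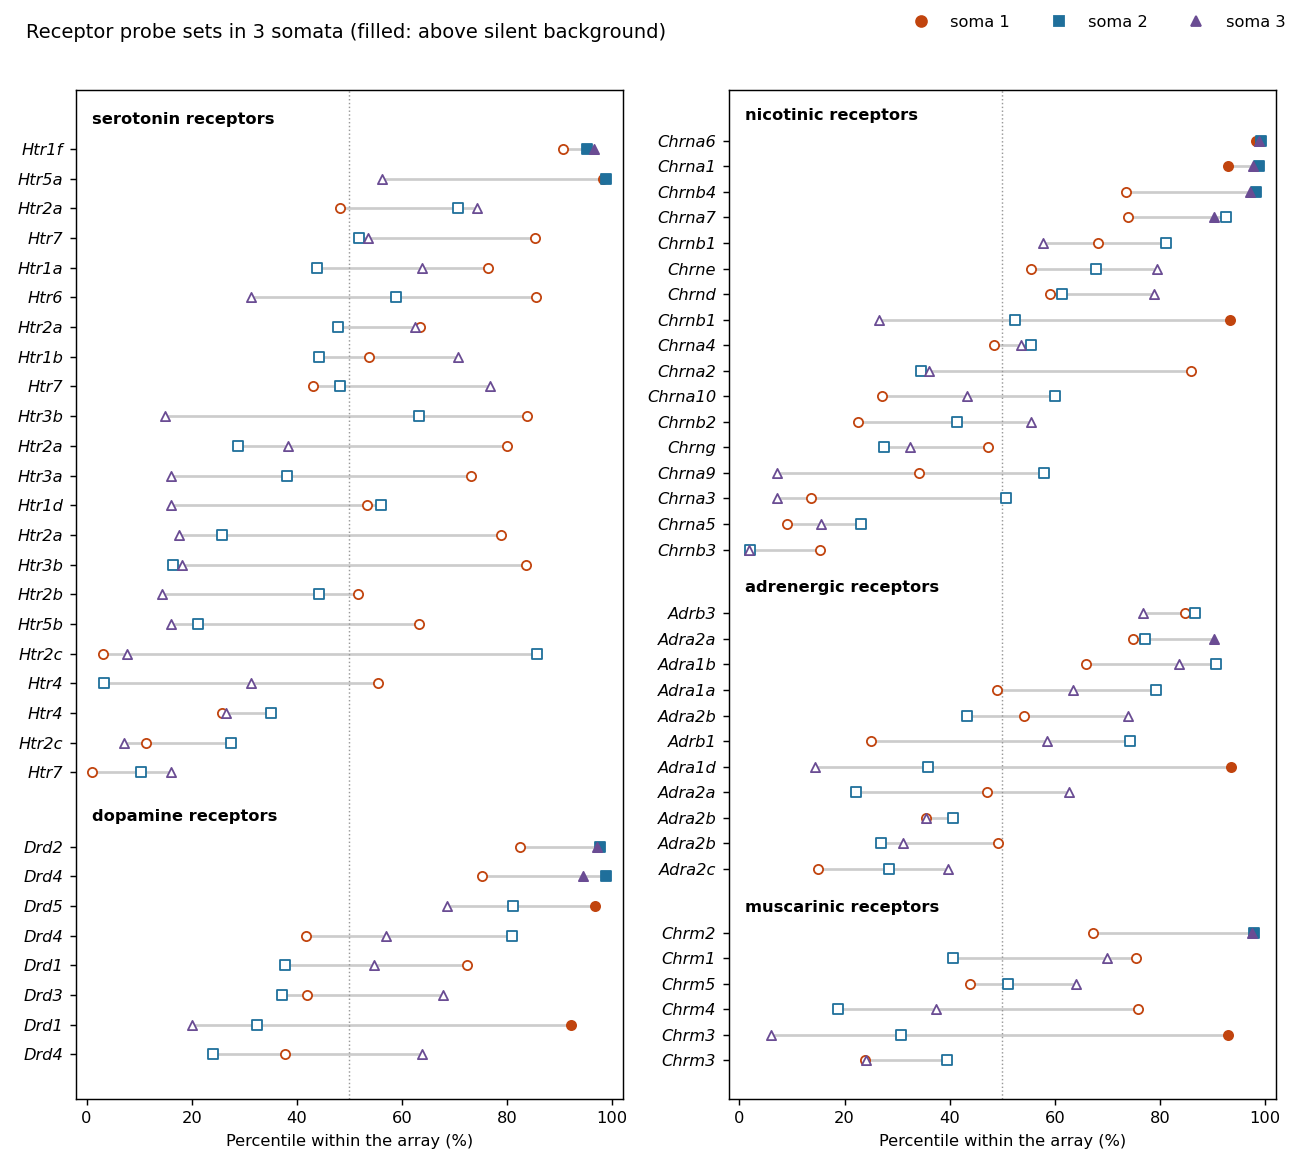
Percentile within the array (%) of each of the 64 receptor probe sets in soma 1 (circle), soma 2 (square) and soma 3 (triangle), by class and ordered by mean percentile; filled symbols are above the silent background and the grey bar joins the 3 somata. Chrna6 and Chrna1 are filled in all 3 somata, and Drd2, Drd4, Chrm2, Chrnb4 and Htr1f in somata 2 and 3 only.

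Dopamine receptors are grouped into D1-like receptors, which couple to Gs, and D2-like receptors, which couple to Gi/o. Of the D1-like pair, Drd5, the D5 receptor known from hippocampal pyramidal cells, read 10.82, 8.78 and 8.01 log2 and was above background in soma 1 alone. Drd1 was measured by a pair of probe sets. Probe set 1368478_at read 9.88, 6.46 and 5.75 log2 and 1368479_at read 8.20, 6.70 and 7.35 log2. Soma 1 was the highest for both probe sets of Drd1 and for Drd5, by 3.86, 1.16 and 2.54 log2 over the mean of the other somata after quantile normalisation.

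The D2-like receptors Drd2 and Drd4 had the opposite pattern. Drd2, the D2 receptor that also serves as an autoreceptor on dopamine neurons, read 8.83, 11.17 and 11.23 log2, so that it was above background in somata 2 and 3 and below it in soma 1. The only Drd2 probe set, 1368708_a_at, has probes that may match several transcripts. Drd4, the D4 receptor, read 8.36, 11.71 and 10.58 log2 with probe set 1387520_at. The other probe sets of Drd4 were below background in every soma: 1394385_s_at read 6.93, 8.77 and 7.45 log2 and 1394384_at read 6.78, 6.04 and 7.77 log2. Only 1387520_at of the 3 Drd4 probe sets therefore carries the high reading, and their mean percentiles ran from 41.8 to 89.5. Drd3 read 6.94, 6.67 and 7.97 log2 and was not above background in any soma.

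Among serotonin receptors, the Gi/o-coupled members Htr1f and Htr5a stood out. Htr1f, the 5-HT1F receptor, read 9.66, 10.57 and 11.06 log2, above background in somata 2 and 3 and just under it in soma 1. It had the highest mean percentile of its class, 94.1 ± 3.13 (SD, n = 3). Htr5a, the 5-HT5A receptor, read 11.26, 11.66 and 7.42 log2. Somata 1 and 2 thus had it within the top 5% of the array and soma 3 at percentile 56.2, and its SD of 2.38 log2 after quantile normalisation was among the 5 largest of the members. No other serotonin receptor probe set was above background in any soma.

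The serotonin receptors best known from hippocampal pyramidal cells were all below background. Of all named probe sets, 17.5% were above it in at least 1 soma, so these few probe sets are not told from the array by this. Htr1a, the Gi/o-coupled receptor that hyperpolarises these cells, read 8.43, 6.95 and 7.77 log2. Htr2a, which couples to Gq/11, had 4 probe sets with mean percentiles from 40.7 to 64.4. Its probe set 1369894_at read 8.58, 6.14 and 5.61 log2 and 1369124_at read 8.64, 6.29 and 6.65 log2. By contrast 1369125_at read 7.19, 8.11 and 8.33 log2, lowest in soma 1, and 1387752_s_at read 7.78, 7.12 and 7.70 log2. The probe sets of Htr2a thus did not agree on which soma was highest.

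Htr2c, the Gq/11-coupled 5-HT2C receptor, read 4.74, 9.15 and 4.98 log2 with probe set 1376980_at and was over 1 log2 higher in soma 2 than in both other somata, though below background there. Its other probe set, 1369860_a_at, read 5.45, 6.23 and 4.93 log2, again with soma 2 highest. Htr4, a Gs-coupled receptor, read 7.46, 4.65 and 6.32 log2 with 1391263_at and 6.27, 6.57 and 6.10 log2 with 1369533_a_at. By 1369533_a_at this receptor was among the 5 steadiest members, with an SD of 0.23 log2 after quantile normalisation, and by 1391263_at, with an SD of 1.40 log2, it was not.

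Htr7, a Gs-coupled receptor, was the only member gene whose probe sets differed by more than 50 percentile points. Probe set 1387466_a_at read 9.06, 7.26 and 7.30 log2 (mean percentile 63.6), 1369119_a_at read 6.98, 7.13 and 8.48 log2 and 1371290_a_at read 4.38, 5.25 and 5.53 log2 (mean percentile 9.16). The 11 member genes with several probe sets had a median gap of 16.8 points between their highest and lowest mean percentile, with 1 gene over 50 points (9.09%). Over all 4526 genes with several probe sets, the median gap was 28.8 points, with 20.2% over 50 points.

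Of the remaining serotonin receptors, the channel subunits Htr3a and Htr3b are taken up with their genomic neighbours, and Htr1b, Htr1d, Htr2b, Htr5b and Htr6 had mean percentiles from 33.5 to 58.5. The highest of them was Htr6, a Gs-coupled receptor, with 9.06, 7.55 and 6.32 log2.

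Adrenergic receptors bind noradrenaline and adrenaline. Of their 11 probe sets, 2 were above background, each in 1 soma, beside 17.5% of all named probe sets in at least 1 soma. Adra1d, the Gq/11-coupled alpha 1D receptor of hippocampus and cortex, read 10.13, 6.61 and 5.42 log2, above background in soma 1 and at percentile 14.3 in soma 3. Adra2a, the Gi/o-coupled alpha 2A receptor that also acts as an autoreceptor on noradrenaline neurons, read 8.34, 8.48 and 9.87 log2 with probe set 1393048_at and 7.13, 5.95 and 7.71 log2 with 1387708_at. Soma 3 was the highest by both Adra2a probe sets, although only the first was above background there.

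The highest mean percentile of the adrenergic class, 82.7 ± 5.32 (SD, n = 3), belonged to Adrb3, the beta 3 receptor of fat cells, with 9.01, 9.27 and 8.48 log2, which stayed below background in all 3 somata. The Gs-coupled beta 1 receptor Adrb1, known from hippocampal pyramidal cells, read 6.23, 8.33 and 7.52 log2. Adra1a read 7.21, 8.62 and 7.76 log2. Both were lowest in soma 1, the reverse of Adra1d. Adra1b had 7.89, 9.77 and 9.05 log2, and Adra2c the lowest mean percentile of the class, with 5.69, 6.27 and 6.70 log2. Among the 3 probe sets of Adra2b, 1370567_at read 6.68, 6.82 and 6.52 log2 and had the smallest SD of all 64 members, 0.13 log2 after quantile normalisation.

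Of the muscarinic receptors, Chrm2, the Gi/o-coupled M2 receptor that acts as an autoreceptor on cholinergic terminals, read 7.94, 11.29 and 11.34 log2. It was above background in somata 2 and 3 by over 1 log2 and at percentile 67.2 in soma 1. Chrm3, the Gq/11-coupled M3 receptor, read 10.04, 6.38 and 4.83 log2 with probe set 1387462_at, above background in soma 1 and at percentile 5.92 in soma 3. This was the largest spread of all 64 members, an SD of 2.71 log2 after quantile normalisation. Its other probe set, 1369112_at, read 6.17, 6.77 and 5.97 log2, an SD of 0.41 log2, so the swing of Chrm3 rests on a single probe set.

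The M1 receptor Chrm1, the main muscarinic receptor of hippocampal pyramidal cells, read 8.38, 6.82 and 8.08 log2 and was below background in every soma. Chrm4 read 8.40, 5.78 and 6.60 log2 and Chrm5 read 7.01, 7.23 and 7.79 log2, also without passing it.

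Soma 1 differed from the other somata more than they did from each other. After quantile normalisation, 17 of the 64 members (26.6%) were over 1 log2 higher in soma 1 than in both other somata, beside 16.3% of all named probe sets, and 8 (12.5%) were over 1 log2 lower than in both, beside 15.7%. Serotonin receptors supplied 9 of the 17 higher members and none of the 8 lower ones. All 9 were below background in every soma, and other probe sets of Htr2a, Htr4 and Htr7 did not share the pattern. The higher members of the other classes were 2 dopamine, 1 adrenergic, 2 muscarinic and 3 nicotinic probe sets, and the lower ones 2 dopamine, 2 adrenergic, 1 muscarinic and 3 nicotinic probe sets. Over the 64 members, the correlation of log2 values was Pearson's r = 0.770 (Spearman's rho = 0.620) between somata 2 and 3, 0.424 (0.307) between somata 1 and 2 and 0.359 (0.277) between somata 1 and 3. Across all named probe sets the values were 0.687 (0.634), 0.477 (0.434) and 0.445 (0.399) in the same order. The arrays share probe affinities, which enter each of these correlations, and probe sets are not independent samples.

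**Figure D3:**
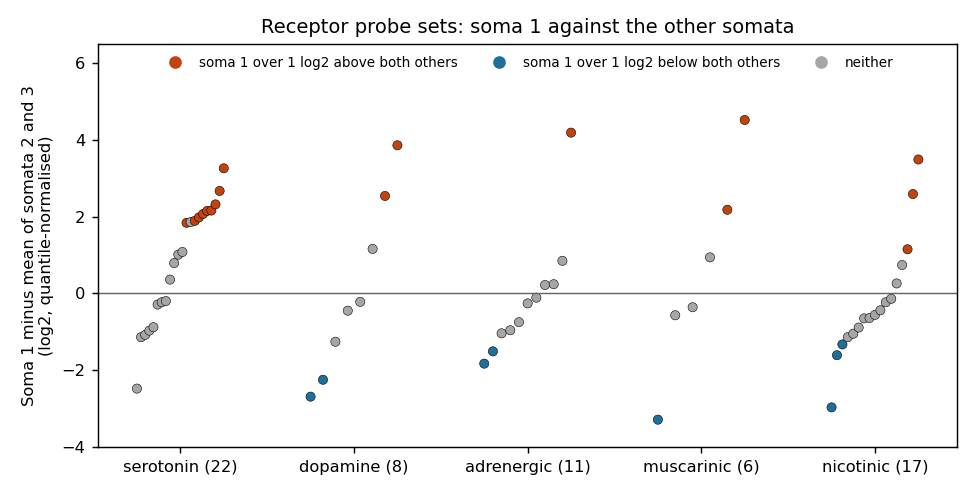
Quantile-normalised log2 value of soma 1 minus the mean of somata 2 and 3 for each of the 64 receptor probe sets, by class with the number of probe sets in brackets. Coloured points are over 1 log2 above (17 probe sets) or below (8 probe sets) both other somata, and no serotonin receptor is among those below. The serotonin receptors among those above did not pass the silent background in any soma.

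The members were also counted by their coupling, with no test between the groups. Of 11 probe sets of Gs-coupled receptors, 2, 0 and 0 were above background in somata 1, 2 and 3, and of 14 probe sets of Gq/11-coupled receptors likewise 2, 0 and 0. Of 19 probe sets of Gi/o-coupled receptors, 1, 5 and 5 were above background. Of 20 probe sets of channel subunits the counts were 3, 3 and 4. The shares in somata 1, 2 and 3 were 18.2, 0 and 0% for Gs and 14.3, 0 and 0% for Gq/11. For Gi/o they were 5.26, 26.3 and 26.3% and for channel subunits 15.0, 15.0 and 20.0%. Over all named probe sets they were 8.53, 6.85 and 10.9%. The receptors above background were thus Drd1, Drd5, Adra1d and Chrm3 for Gs and Gq/11, all in soma 1 alone, and Drd2, Drd4, Chrm2, Htr1f, Htr5a and Adra2a for Gi/o. Among these Gi/o receptors only Htr5a passed in soma 1. Drd1, Chrm3, Drd4 and Adra2a each passed by 1 of their probe sets alone, and Htr1f missed soma 1 narrowly. A few calls therefore make up the differences between these groups.

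Other values moved with soma 1. For scale, 8.53, 6.85 and 10.9% of all named probe sets were above background in somata 1, 2 and 3. Microglial markers were above background for 3, 0 and 0 of 7 probe sets in somata 1, 2 and 3 (Csf1r, Itgam and Tyrobp), at median percentiles of 51.8, 53.6 and 63.8, while the microglial genes Aif1, Cx3cr1 and C1qb passed in none. Astrocyte markers were above it for 3, 0 and 1 of 12 probe sets, at medians of 76.4, 46.9 and 53.3, with Gfap and Aldh1l1 passing in none. The part of these markers, and of the smaller Gapdh 3′ to 5′ difference of soma 1, in the receptor pattern was not tested.

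The promoters of 4 genes are shown, those of the members that were above background in somata 2 and 3 but not in soma 1, and over 1 log2 lower in soma 1 than in both: Drd2, Drd4, Chrm2 and Chrnb4. The sequences are those of RefSeq on build GRCr8, from 250 bases before to 50 bases after the annotated start of each gene, written in the direction of transcription. Capitals mark each GC box, the letters GGGCGG or their reverse complement, with overlapping copies run together.
Drd2, chr8:58605153-58605452, + strand: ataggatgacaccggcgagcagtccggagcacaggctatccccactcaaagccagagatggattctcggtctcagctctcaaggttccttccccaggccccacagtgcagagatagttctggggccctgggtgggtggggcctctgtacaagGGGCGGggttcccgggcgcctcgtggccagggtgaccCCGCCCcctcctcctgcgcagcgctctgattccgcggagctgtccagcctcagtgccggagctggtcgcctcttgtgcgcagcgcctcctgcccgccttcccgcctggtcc
Drd4, chr1:205825687-205825986, + strand: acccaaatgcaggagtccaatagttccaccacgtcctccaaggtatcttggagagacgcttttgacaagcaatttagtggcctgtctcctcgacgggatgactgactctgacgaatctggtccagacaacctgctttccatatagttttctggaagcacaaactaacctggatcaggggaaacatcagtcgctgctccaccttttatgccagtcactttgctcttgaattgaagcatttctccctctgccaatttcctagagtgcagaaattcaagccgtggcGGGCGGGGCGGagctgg
Chrm2, chr4:65982200-65982499, + strand: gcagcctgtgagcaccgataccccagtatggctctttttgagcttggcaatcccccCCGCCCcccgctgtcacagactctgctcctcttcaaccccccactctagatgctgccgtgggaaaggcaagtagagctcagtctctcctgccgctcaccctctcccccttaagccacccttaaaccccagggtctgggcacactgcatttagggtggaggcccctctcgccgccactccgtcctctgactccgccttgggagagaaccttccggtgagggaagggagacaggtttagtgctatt
Chrnb4, chr8:64333060-64333359, - strand: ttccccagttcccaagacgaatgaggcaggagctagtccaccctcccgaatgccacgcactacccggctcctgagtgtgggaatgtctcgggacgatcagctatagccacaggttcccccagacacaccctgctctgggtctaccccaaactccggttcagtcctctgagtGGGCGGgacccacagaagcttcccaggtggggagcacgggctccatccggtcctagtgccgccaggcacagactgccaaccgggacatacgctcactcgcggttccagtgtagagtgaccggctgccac

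Each of these promoters held a GC box, with 2 in Drd2, 2 that overlap in Drd4, 1 in Chrm2 and 1 in Chrnb4. RefSeq promoters were found for 38 of the 48 receptor genes. Of these 38, 20 (52.6%) held GGGCGG on either strand, against 33.1% of all 33469 promoters of the same length. TATAAA was in 1 of the 38 (2.63%, Chrnb1) and in 14.2% of all. The core of the cyclic AMP response element, TGACG, was in 8 (21.1%), Drd4 among them, and in 21.2% of all, and CACGTG, which reads the same on both strands, was in 2 (5.26%, Chrna3 and Chrna7) and in 6.42% of all. The receptor promoters had a median GC content of 60.7% and 15.5 CpG dinucleotides, against 51.7% and 7.00 in all promoters. A match of letters describes the window and not a bound site, and GC boxes were not limited to these genes. Of the receptor genes below background in every soma, some held them, such as Chrm4 and Chrna5, and some did not, such as Adrb1 and Chrm1. Among the other genes above background in at least 1 soma, Chrm3, Chrna7, Chrnb1, Drd5 and Htr5a held them. Chrna1, Htr1f, Adra1d, Adra2a and Drd1 did not. Of these, Chrna1 was above background in all 3 somata and also over 1 log2 lower in soma 1. Whether GC boxes go with the readings was not tested.

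Several receptor genes lie next to each other in the rat genome with no protein-coding gene between them in the GRCr8 annotation, and their readings were set side by side. Chrna6 and Chrnb3 are such neighbours, and their probe sets had the highest and the lowest mean percentile of the nicotinic class. In the cluster of Chrna5, Chrna3 and Chrnb4, only Chrnb4 was above background, and only in somata 2 and 3. Its neighbour Chrna3 was highest in soma 2 and lowest in soma 3, and so did not share the pattern of Chrnb4. The muscle subunits Chrnd and Chrng differed too, with Chrnd highest in soma 3 and Chrng in soma 1.

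The remaining pair, Htr3a and Htr3b, encodes the subunits of the serotonin 3 receptor channel, which in the hippocampus is known from interneurons. Htr3a read 8.25, 6.72 and 5.53 log2 in somata 1, 2 and 3. Htr3b read 8.91, 5.65 and 5.65 log2 with probe set 1371077_at and 8.91, 7.76 and 5.46 log2 with 1387602_a_at. All 3 probe sets were over 1 log2 higher in soma 1 than in both other somata after quantile normalisation and below background in every soma. The interneuron markers had median percentiles of 43.0, 56.1 and 17.5, with Vip, in soma 2, the only one above background.

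**Figure D4:**
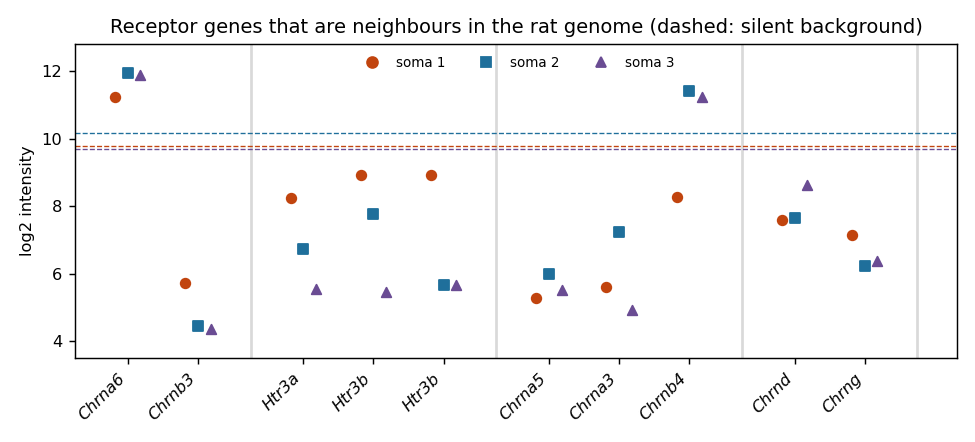
log2 intensity in soma 1 (circle), soma 2 (square) and soma 3 (triangle) of receptor genes that are neighbours in the rat genome, 1 column per probe set with grey lines between gene clusters; dashed lines are the silent background of each soma (9.78, 10.17 and 9.69 log2). Chrna6 lies above the lines in all 3 somata while Chrnb3 lies far below, and the Htr3a and Htr3b points of soma 1 are the highest of their columns.

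Receptors known from hippocampal pyramidal cells were set beside those known mainly from muscle, inner ear, fat or gut. These lists were made with earlier results of these data known. The 24 probe sets of 15 hippocampal genes had median percentiles of 59.5, 41.0 and 53.6, and 4, 0 and 1 were above background in somata 1, 2 and 3. The 10 probe sets of 9 genes of other organs had medians of 57.2, 60.7 and 50.5, and 2, 1 and 1 were above it. The other 30 probe sets had 2, 7 and 7 above it. Over all named probe sets, 8.53, 6.85 and 10.9% were above background in somata 1, 2 and 3. Only a few calls separate the hippocampal and other-organ counts from these shares, so the counts do not tell those sets from the array. The hippocampal median was the higher of the pair in somata 1 and 3 and the lower in soma 2. The means over somata were 51.3 ± 9.45 for hippocampal genes and 56.1 ± 5.15 for genes of other organs (SD, n = 3), closer than the spread between somata. The order of these means turned with the median probe set of each gene (55.9 and 52.9), with the brightest (52.6 and 50.4) and without soma 2 (56.5 and 53.9).

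The spread between somata of the members was that of the array. The median SD over the 3 somata after quantile normalisation was 0.85 log2 for the 64 members and 0.84 log2 for all named probe sets. By class the medians were 1.14 log2 for dopamine, 1.08 for muscarinic, 1.04 for serotonin, 0.74 for adrenergic and 0.70 for nicotinic probe sets. The 5 largest values belonged to Chrm3 (1387462_at), Htr2c (1376980_at), Adra1d, Htr5a and Drd1 (1368478_at), at 2.71, 2.49, 2.48, 2.38 and 2.25 log2. The 5 smallest belonged to Adra2b (1370567_at), Chrna4, Htr4 (1369533_a_at), Chrna6 and Htr2a (1387752_s_at), at 0.13, 0.14, 0.23, 0.28 and 0.37 log2.

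The genes that make, carry and break down the transmitters were mostly at background, as was most of the array. Over all named probe sets, 8.53, 6.85 and 10.9% were above background in somata 1, 2 and 3, and 17.5% in at least 1 soma. Of 18 probe sets of 13 monoamine genes, 1, 0 and 1 were above background, with median percentiles of 57.8, 48.6 and 41.6. They were Th, tyrosine hydroxylase, which makes the precursor of dopamine, with 9.83, 8.99 and 7.30 log2, and Qdpr, which recycles a cofactor of that step, with 8.45, 10.08 and 10.39 log2. None of the 8 probe sets of 6 acetylcholine genes passed in any soma (medians 29.1, 63.9 and 45.9). Chat, the enzyme that makes acetylcholine, was among them with 5.25, 8.10 and 6.86 log2, as was the choline transporter Slc5a7 with 8.38, 5.46 and 5.46 log2.

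Of 17 probe sets of 8 genes that assemble or modulate nicotinic receptors, 1 was above background in each soma (medians 35.7, 40.3 and 56.7). That was 5.88% in each, beside 8.53, 6.85 and 10.9% of all named probe sets in somata 1, 2 and 3. Tmem35a, a chaperone needed for alpha 7 receptors, read 10.72, 7.74 and 11.49 log2 and passed in somata 1 and 3, and so was lowest in soma 2, where Chrna7 itself was highest. Ric3, another alpha 7 chaperone, read 6.68, 9.45 and 7.63 log2, highest in soma 2, and stayed below background. Of 13 probe sets of 9 receptor kinase, arrestin and related genes, which desensitise or scaffold G protein-coupled receptors, 1, 1 and 0 were above background (medians 62.4, 49.6 and 51.4). They were Grk4 (1375594_at), with 10.28, 8.76 and 7.97 log2, and Grk6 (1393987_s_at, whose probes may match several transcripts), with 9.35, 11.16 and 9.67 log2. The other Grk4 probe set, 1369763_at, read 6.44, 4.71 and 4.51 log2. It and the other Grk6 probe sets were below background in every soma.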

How the data were processed

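RNA of 3 single somata, 1 per array, was measured on Affymetrix rat arrays after antisense RNA amplification, the last step of which ran for 14 h, and 5 µg were labelled per array. The authors deposited 1 log2 value per probe set, and the labels name RMA 2.0. The study's methods describe an upper-decile summary of probes, median centring and scaling by the spread between the 10th and 90th percentiles for its dendrite and tissue arrays, and not for somata. The deposited log2 medians (7.23, 7.16 and 7.09) were not so centred. The genome build, and whether the arrays were processed together, are not given in the sources used here. The 3 arrays shared nearly the same distribution, with sorted values at most 0.474 log2 apart, and their values were coarse (2889, 2866 and 2090 distinct values).

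Symbols came from the platform annotation, which can be old: 20832 of 31099 probe sets had 1 symbol, 436 several and 9831 none here. All 64 member probe sets were found in the RefSeq gene table (GRCr8), and 0 symbols changed. Percentiles used mean ranks for ties. Differences between somata and SDs used quantile-normalised values. Given with all 3 values were members above background or in the top 5% in any soma, the highest and lowest of each class, the 5 with the largest and the 5 with the smallest SD, receptors known from pyramidal cells, and genes whose probe sets differed by over 50 points. Members and lists, the receptor roles among them, were chosen with earlier results of these data known. The sequences shown, the neighbouring genes and some further members named were chosen after their values were seen. Python 3.11.15, numpy 2.4.6, pandas 2.3.3, scipy 1.17.1 and matplotlib 3.10.9 were used, and the functions were tested on simulated data. Alternatives changed the value taken per gene, the ambiguous probe sets, the ranking, the background, the normalisation and the somata included. The number of arrays, 3, limits the precision.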

Additional observations from a re-analysis of the deposited data

How the results depend on the processing

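Of 99 values under alternatives, 81 stayed within the spread between somata or within 1.5 times the count. With 1 soma left out, 46 of 48 values did. For the median percentiles this was fixed in advance, because the mean without 1 soma always lies within 1 SD of the mean of all 3. The number 46 is therefore no measure of how steady they are. The cause of the values that moved was not tested, beyond the fewer probe sets or stricter limits that some settings impose. The dopamine class (66.4) had a mean median percentile of 79.1 with the median probe set of each gene and 59.0 without the 12 ambiguous probe sets, which may match several transcripts. The nicotinic class (55.7) had 52.7 with the median probe set, 47.3 with the brightest and 52.2 without ambiguous ones. Receptors of other organs (56.1) had 50.4 with the brightest probe set, nicotinic assembly genes (44.2) had 57.7 with the median probe set and 58.3 without ambiguous ones, and kinases and arrestins (54.5) had 62.2 with the brightest. Members above background numbered 5 in soma 1 with the median probe set of each gene (10.4% of 48 genes, beside 6.55% of all genes) and 5 in soma 3 without ambiguous probe sets (9.62%, beside 9.70% of all). At the 99th percentile of the silent probe sets they numbered 0, 5 and 1 in somata 1, 2 and 3, 0 in every soma and 5 in any (beside 0.470, 2.01, 2.26, 0.374 and 2.92% of all named probe sets). The top 5% held 3, 8 and 6 members in somata 1, 2 and 3 and 9 in any soma. The top 10% held 9 in soma 1 and 16 in any soma. For neither cut was the share of all named probe sets in any soma computed.

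With 1 soma left out, members above background in every remaining soma numbered 2 to 7, the 7 being without soma 1. Those above it in any numbered 10 to 15. The members in the top 5% in any soma numbered 8 to 9. The ratio of the members' median SD to that of all named probe sets was 1.01 and ran from 0.979 to 1.17, the last without soma 3. Mean median percentiles ran from 51.1 to 57.6 for all members, 36.6 to 53.8 for serotonin, 62.6 to 69.8 for dopamine, 46.2 to 55.9 for adrenergic, 45.4 to 61.0 for muscarinic and 54.5 to 56.7 for nicotinic probe sets. No paired analysis was possible because all 3 arrays belong to 1 group. Silent genes set a background near the 90th percentile of each array, so transcripts of low level could not be told from it.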
